A study of Mus musculus with 9 samples.

Results

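Matrix metalloproteinases (MMPs) are zinc-dependent enzymes that cut collagen and other matrix proteins, and tissue inhibitors of metalloproteinases (TIMPs) are small secreted proteins that block them. The genes described here are 5 MMPs (Mmp15, Mmp14, Mmp2, Mmp9 and Mmp19) and 3 inhibitors (Timp1, Timp2 and Timp3). They are the rows with these names in a deposited table of mouse duodenum RNA levels, 8 of 54532 genes. The list was drawn up with the values of these libraries known, so the values of its genes are given as a description, without tests.

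The study measured duodenal RNA in 3 groups of 3 libraries. CeD+GR mice carried a celiac disease model based on delayed-type hypersensitivity and were given composite nanoparticles of gliadin, a gluten protein fraction, and the mTOR inhibitor rapamycin ahead of enhanced gluten stimulation. CeD mice were the same model with the enhanced stimulation and no nanoparticles, and Control mice were wild type with non-enhanced gluten stimulation. The sources used here do not give strain, age or how the model was induced. All 3 groups received gluten. The CeD and Control groups differ in both the model and the strength of the stimulation, and these cannot be told apart. Likewise, the CeD+GR and CeD groups differ by the whole particle, so gliadin, rapamycin and carrier cannot be told apart. The labels do not say whether the libraries of a group came from separate animals, so the spread between them may be technical.

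Values are the deposited FPKM, which scale fragments by gene length and by library size. A library is called by its group followed by the number in its label, such as CeD+GR 3. The depth behind the values was 15373260 to 16852104 gene-assigned reads in each library. The library size that the FPKM imply was 14410550 to 18206426. It differed from the assigned reads, as in CeD 1 (17831210 against 15373260). All 7 markers of an epithelium list were present in every library, with summed levels of 3145 to 4012 FPKM in CeD+GR, 2731 to 4168 FPKM in CeD and 2957 to 3223 FPKM in Control. Some libraries stood apart from their groups. CeD+GR 3 held 121300 FPKM of 5 gastric and Brunner gland mucous cell markers, led by Tff2, while the other 8 libraries held at most 46.6 FPKM. CeD 1 held 3216 FPKM of 7 exocrine pancreas markers, led by Ctrb1, while the highest of the others held 45.1 FPKM. CeD+GR 2 held 262.1 FPKM of 5 adipocyte markers, led by Cidec, while the other 8 libraries held 45.15 to 86.55 FPKM. The 3 libraries with replicate number 1 held 2095 FPKM (CeD+GR), 1967 FPKM (CeD) and 1035 FPKM (Control) of 7 Paneth cell markers, against 73.1 to 172.5 FPKM in the other 6. In bulk tissue, fewer cells of a type and less RNA per cell cannot be told apart.

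MMPs are made as inactive precursors whose catalytic zinc is held by 3 histidines, with a glutamate beside the first of them. Most are secreted, while Mmp14 and Mmp15 encode membrane-type enzymes anchored at the cell surface. Mmp14 protein activates the precursor of Mmp2 together with Timp2, so that an inhibitor also serves as an adaptor. In the gut these enzymes and inhibitors take part in matrix turnover below the epithelium and in its repair.

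The coding bases of the zinc site are shown because they are what the 5 MMPs share. Capitals mark the codons of the 3 histidines and the glutamate. Each stretch was read from GENCODE M21 transcripts (GRCm38, the mm10 build) on the plus strand and lies in 1 exon, which is exon 5 of 10 in Mmp15, exon 5 of 10 in Mmp14, exon 8 of 13 in Mmp2 and in Mmp9, and exon 5 of 9 in Mmp19.
Mmp15, chr8:95368585-95368617: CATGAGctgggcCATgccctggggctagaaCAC
Mmp14, chr14:54437627-54437659: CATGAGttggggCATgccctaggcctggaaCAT
Mmp2, chr8:92839279-92839311: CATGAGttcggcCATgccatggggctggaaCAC
Mmp9, chr2:164951133-164951165: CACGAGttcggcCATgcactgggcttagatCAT
Mmp19, chr10:128795673-128795705: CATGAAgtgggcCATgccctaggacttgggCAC
Of these 33 bases, Mmp15 has 27 in common with Mmp14, 29 with Mmp2, 25 with Mmp9 and 26 with Mmp19.

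The inhibitors share no such site. Each mature TIMP instead begins with a cysteine that sits on the zinc of the enzyme. The coding bases from that cysteine onward are given with the codons of the first cysteine and of the next one in capitals.
Timp1, chrX:20871111-20871137, plus strand, exon 2 of 6: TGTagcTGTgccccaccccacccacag
Timp2, chr11:118354986-118355012, minus strand, exon 1 of 5: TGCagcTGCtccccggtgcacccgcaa
Timp3, chr10:86300923-86300949, plus strand, exon 1 of 5: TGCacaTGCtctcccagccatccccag
Timp1 and Timp2 have 18 of these 27 bases in common, Timp1 and Timp3 have 16, and Timp2 and Timp3 have 17.

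Among the 7 of the 8 listed genes that could be fitted, Mmp15 had the largest log2 differences of CeD+GR from both other groups. It encodes a membrane-type enzyme (ENSMUSG00000031790, mm10 chromosome 8, 95352268 to 95375080, plus strand). It stood at 12.01, 7.79 and 12.3 FPKM in CeD+GR 1 to 3, against 4.62, 6.47 and 4.17 FPKM in CeD 1 to 3 and 4.23, 4.18 and 3.58 FPKM in Control 1 to 3. Every CeD+GR library lay above every CeD and every Control library, and CeD 2 was the highest of those 6. Of all 14683 tested genes, 3.01% were higher without overlap in CeD+GR than in CeD, and 2.54% higher than in Control. These levels rest on 662 to 1088 reads per library in CeD+GR, 371 to 503 in CeD and 326 to 416 in Control.

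Mmp15 averaged 10.7 ± 2.54 FPKM in CeD+GR, 5.09 ± 1.22 FPKM in CeD and 3.997 ± 0.362 FPKM in Control (SD, n = 3 each). The ratio of means was 2.11 for CeD+GR over CeD, 1.27 for CeD over Control and 2.68 for CeD+GR over Control. On the scale of log2(FPKM + 0.5), the difference was 0.999 (SE 0.24) for CeD+GR against CeD, 0.29 (SE 0.24) for CeD against Control and 1.29 (SE 0.24) for CeD+GR against Control. These 3 differences come from 1 fit of all 9 libraries and share groups: CeD enters the first 2, and Control the last 2. CeD and Control overlapped, since CeD 3 lay below Control 1 and Control 2. Without CeD+GR 3, the library with gastric transcripts, the difference from Control was 1.18, and without both that library and CeD 1 the difference from CeD was 0.84.

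**Figure D1:**
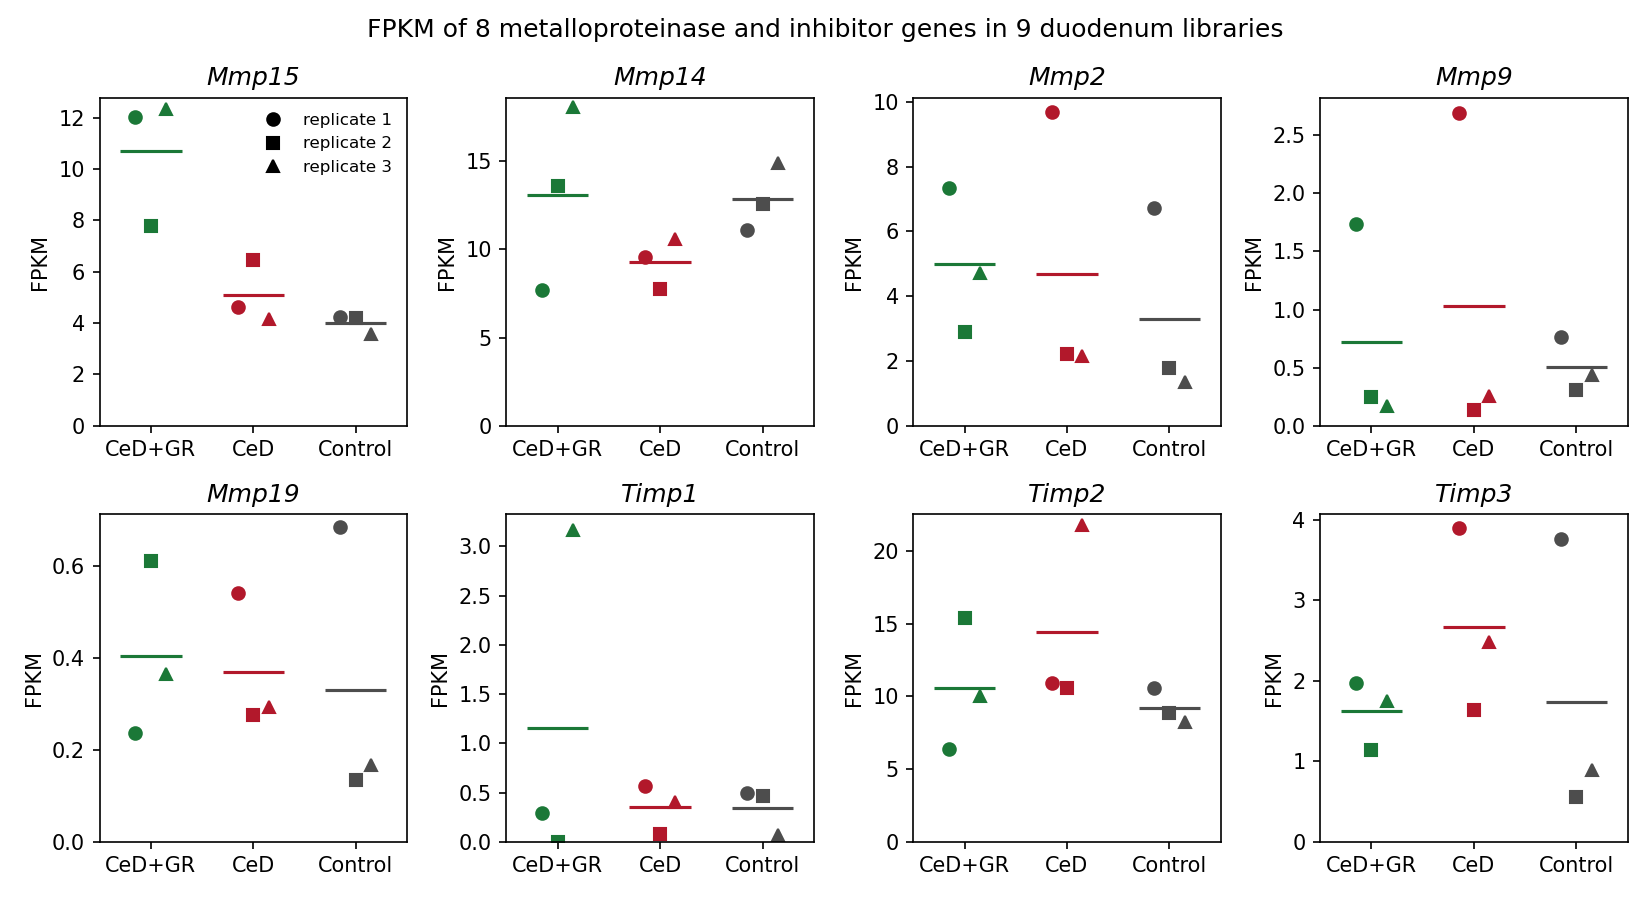
FPKM of the 8 genes in each library (points; shape gives the replicate number), with group means as lines and each vertical axis starting at 0. For Mmp15 the 3 CeD+GR libraries lie at 7.79 to 12.3 FPKM, above the 6 CeD and Control libraries at 3.58 to 6.47 FPKM, while Mmp2 and Mmp9 separate by replicate 1 rather than by group.

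Levels of epithelial marker genes were set beside those of Mmp15. The ratio of Mmp15 to Vil1, which encodes the microvillus protein villin, was 0.0174, 0.0154 and 0.0480 in CeD+GR, 0.00970, 0.00697 and 0.00695 in CeD and 0.00774, 0.00596 and 0.00697 in Control. On this scale CeD+GR again lay above the other libraries. Vil1 itself stood at 690.1, 507.0 and 256.7 FPKM in CeD+GR 1 to 3. It stood at 476.7 to 927.5 FPKM in CeD and 514.0 to 700.8 FPKM in Control, so the ratio of CeD+GR 3 has the lowest divisor. The ratio to Epcam, an epithelial adhesion molecule, was 0.0147, 0.00785 and 0.0236 in CeD+GR, 0.0104, 0.00778 and 0.00666 in CeD and 0.00896, 0.00545 and 0.00463 in Control. Here CeD+GR 2 lay below CeD 1 and Control 1, so the groups overlapped. The ratio to Pdgfra, a fibroblast marker, was 2.26, 3.33 and 3.88 in CeD+GR and 0.6655, 2.77 and 1.09 in CeD. In Control it was 0.596, 2.33 and 1.07, and the groups overlapped here too. The villus enterocyte list summed to 8463 to 32860 FPKM in CeD+GR, 12300 to 34320 FPKM in CeD and 15800 to 33380 FPKM in Control, with its lowest level in CeD+GR 3. The part of cell composition in the Mmp15 values was not tested.

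The genes whose profile over the 9 libraries was most like that of Mmp15 were Rnft1, Maff, Tfcp2l1, Zfp637 and Slc17a5. Pearson's r of log2(FPKM + 0.5) with Mmp15 was 0.956 for Rnft1, a ring finger membrane protein, and 0.953 for Maff, a small Maf transcription factor. It was 0.925 for Tfcp2l1, a transcription factor of the CP2 family, 0.921 for the zinc finger gene Zfp637 and 0.916 for Slc17a5, the lysosomal sialic acid exporter. All 9 points share the group structure, and the 5 genes were picked as the highest of the protein-coding genes tested, so these values describe likeness only. Among the 6 libraries with replicate numbers 2 and 3, r was 0.897 to 0.978 for the 5 genes. Tfcp2l1 stood at 7.70, 6.30 and 8.72 FPKM in CeD+GR, 2.58, 4.59 and 4.02 FPKM in CeD and 2.41, 3.08 and 3.27 FPKM in Control, and its CeD+GR libraries did not overlap with the others. By narrow margins the same held for Rnft1 and Slc17a5, while Maff and Zfp637 overlapped. As these genes were picked for likeness to Mmp15, which itself did not overlap, this is no separate result.

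**Figure D2:**
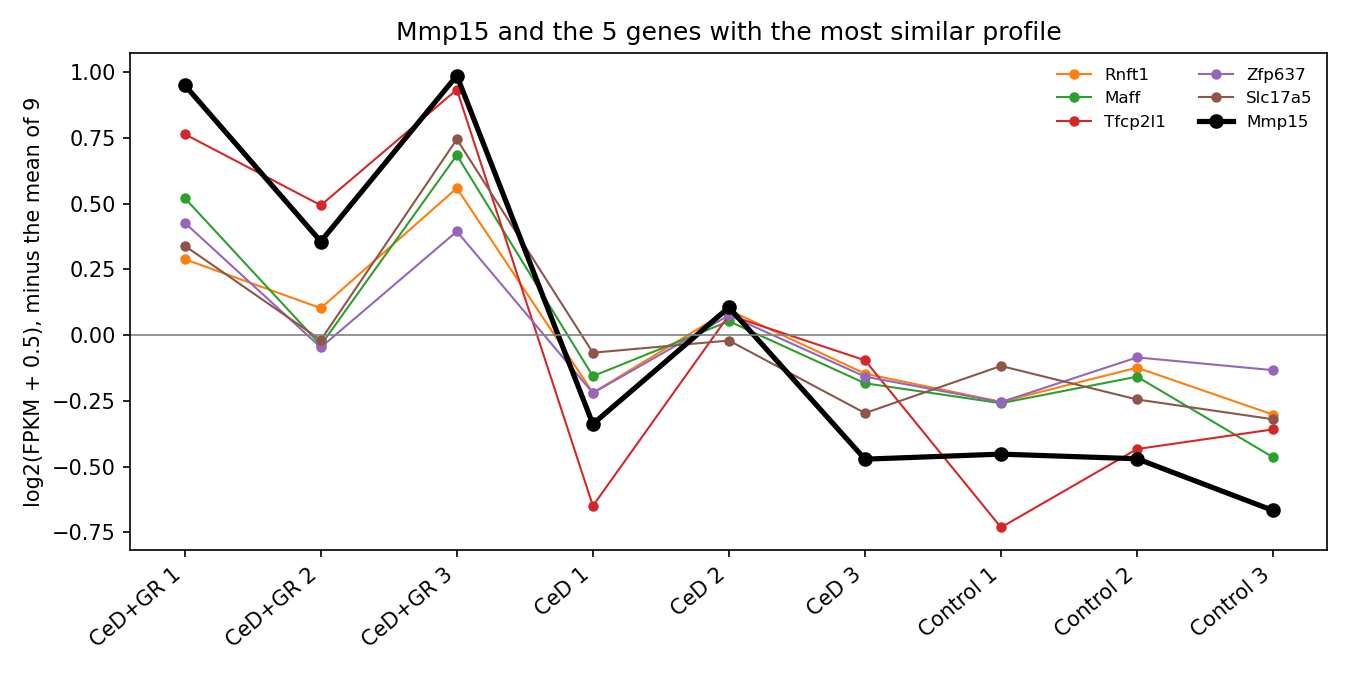
Profiles of Mmp15 (black) and the 5 genes most like it, as log2(FPKM + 0.5) minus each gene's mean over the 9 libraries. Mmp15 and Tfcp2l1 lie above their means in the 3 CeD+GR libraries, and CeD 2 is the highest of the other 6 for Mmp15.

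Mmp14, the other membrane-type enzyme, followed another order (ENSMUSG00000000957, chromosome 14, 54431612 to 54445364, plus strand). It stood at 7.68, 13.6 and 18.1 FPKM in CeD+GR 1 to 3, 9.59, 7.74 and 10.6 FPKM in CeD and 11.1, 12.6 and 14.9 FPKM in Control. The 3 CeD libraries lay below the 3 Control libraries, while CeD+GR held both the lowest and the highest level of all 9. The means were 13.1 ± 5.21 FPKM in CeD+GR, 9.31 ± 1.45 FPKM in CeD and 12.9 ± 1.94 FPKM in Control (SD, n = 3 each). The log2 difference was 0.40 (SE 0.31) for CeD+GR against CeD and 0.14 for the same contrast without CeD+GR 3. For CeD against Control it was -0.45 (SE 0.31), and for CeD+GR against Control -0.04 (SE 0.31).

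The balance of these membrane-type genes differed between libraries. Mmp15 stood at 1.56, 0.573 and 0.682 times the FPKM of Mmp14 in CeD+GR 1 to 3, at 0.482, 0.835 and 0.393 times in CeD and at 0.382, 0.332 and 0.240 times in Control. Only in CeD+GR 1 did Mmp15 exceed Mmp14 among the 9 libraries. CeD+GR and CeD both lay above Control in this ratio, and overlapped with each other through CeD 2. The ratio is made of Mmp15, higher in CeD+GR without overlap, and Mmp14, lower in CeD than in Control. Both were listed with these values known, and the share of other gene pairs with this order was not counted. It is therefore no separate result.

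**Figure D3:**
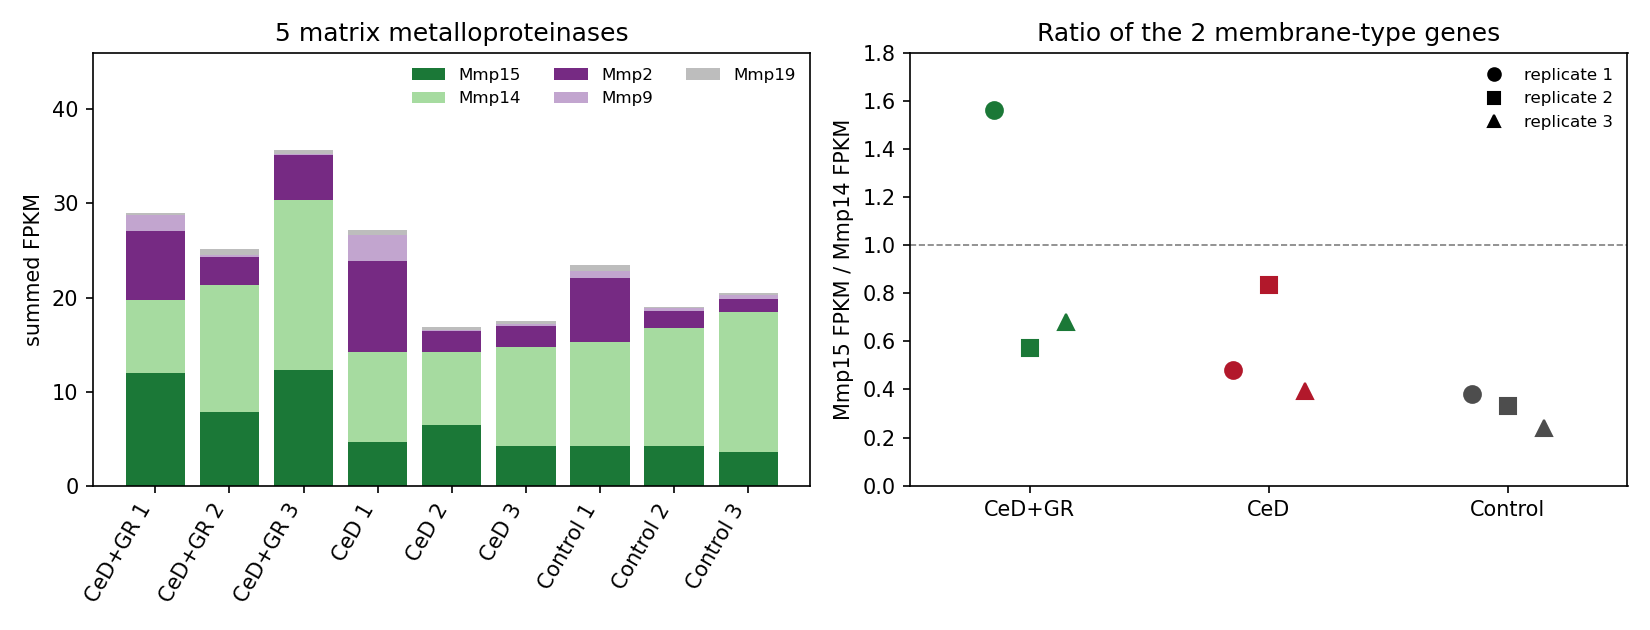
Left, FPKM of the 5 MMPs stacked for each library; right, the ratio of Mmp15 to Mmp14 FPKM, with a dashed line at 1. Mmp15 made up 31.0% to 41.4% of the stack in CeD+GR, 17.0% to 38.4% in CeD and 17.5% to 22.0% in Control.

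The promoters of Mmp15 and Mmp14, the membrane-type genes, are shown without a test of any bearing on the levels. They run from 250 bases before to 50 bases after the start of each gene in RefSeq (GRCm38.p6), plus strand, with the GC box GGGCGG, read on both strands, in capitals. RefSeq promoters were matched for 5 of the 8 genes.
Mmp15 promoter, chr8:95352046-95352345: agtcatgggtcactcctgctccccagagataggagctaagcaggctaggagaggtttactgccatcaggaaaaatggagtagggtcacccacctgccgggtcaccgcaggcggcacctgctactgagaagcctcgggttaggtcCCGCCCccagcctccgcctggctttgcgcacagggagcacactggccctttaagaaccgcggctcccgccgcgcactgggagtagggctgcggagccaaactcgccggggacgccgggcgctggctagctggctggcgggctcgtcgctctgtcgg
Mmp14 promoter, chr14:54431348-54431647: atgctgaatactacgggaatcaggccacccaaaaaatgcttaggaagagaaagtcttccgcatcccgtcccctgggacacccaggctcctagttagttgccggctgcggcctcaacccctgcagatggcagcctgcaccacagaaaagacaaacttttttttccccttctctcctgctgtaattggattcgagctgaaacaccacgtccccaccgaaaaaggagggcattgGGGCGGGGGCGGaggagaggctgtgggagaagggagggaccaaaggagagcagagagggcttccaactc
The Mmp15 window holds 1 GC box and the Mmp14 window 2 adjoining ones, where 35.7% of 32851 promoters hold at least 1. Neither window holds the AP-1 motif TGANTCA, found in 7.81% of promoters, or the TATA box TATAAA, found in 13.6%, on either strand and with no overlap among the motifs found. The GC content was 66% for Mmp15 and 56% for Mmp14, against a median of 52.7% over all promoters.

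The secreted gelatinases Mmp2 and Mmp9, which cut denatured collagen, separated by replicate number and not by group. Mmp2 (ENSMUSG00000031740, chromosome 8, 92827291 to 92853420, plus strand) stood at 7.34, 2.88 and 4.72 FPKM in CeD+GR 1 to 3, 9.70, 2.20 and 2.16 FPKM in CeD and 6.73, 1.78 and 1.34 FPKM in Control. In each group the library numbered 1 was the highest, and the 3 of them did not overlap with the other 6. The means were 4.98 ± 2.24 FPKM in CeD+GR, 4.69 ± 4.34 FPKM in CeD and 3.28 ± 2.99 FPKM in Control (SD, n = 3 each), and the 3 groups overlapped. At each replicate number the Control library was the lowest of the 3. The numbers were not taken as pairs, and the share of all genes with this order was not counted. The log2 difference was 0.30 (SE 0.67) for CeD+GR against CeD, 0.42 (SE 0.67) for CeD against Control and 0.73 (SE 0.67) for CeD+GR against Control. Without CeD 1 that of CeD against Control turned to -0.22.

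Among the libraries numbered 2 and 3 alone, Mmp2 stood at 2.88 and 4.72 FPKM in CeD+GR, 2.20 and 2.16 FPKM in CeD and 1.78 and 1.34 FPKM in Control, with no overlap between the groups. This smaller set was looked at after the values were seen, and it includes CeD+GR 3, the library with gastric transcripts. The share of all genes without overlap in it was not counted, so nothing is read from this order. Pdgfra, a receptor and marker of fibroblasts, which are known to make Mmp2, was also high in the libraries numbered 1. It stood at 5.31, 2.34 and 3.18 FPKM in CeD+GR 1 to 3, 6.95, 2.33 and 3.83 FPKM in CeD and 7.10, 1.79 and 3.35 FPKM in Control. The whole fibroblast list of 8 markers did not follow this order in every group. It summed to 49.1, 56.5 and 79.5 FPKM in CeD+GR 1 to 3, 95.2, 35.9 and 64.2 FPKM in CeD and 66.1, 26.7 and 30.1 FPKM in Control. The library numbered 1 was the highest in CeD and in Control but the lowest in CeD+GR. Its highest marker, the proteoglycan gene Dcn, likewise stood at 13.6, 23.7 and 14.5 FPKM in CeD+GR 1 to 3. The part of fibroblast content in the Mmp2 values was not tested. The genes most like Mmp2 over the 9 libraries were Gart, a purine synthesis enzyme (r = 0.980), Rad18, a ubiquitin ligase of DNA damage tolerance (r = 0.977), and Prc1, a cytokinesis protein (r = 0.972).

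Mmp9 was low, with 402 reads in all 9 libraries together (ENSMUSG00000017737, chromosome 2, 164940780 to 164955850, plus strand). It stood at 1.73, 0.251 and 0.173 FPKM in CeD+GR 1 to 3, 2.69, 0.137 and 0.257 FPKM in CeD and 0.760, 0.309 and 0.435 FPKM in Control. The libraries numbered 1 again lay above the other 6, with 49 to 170 reads each against 7 to 26. The log2 difference was -0.15 (SE 0.68) for CeD+GR against CeD, 0.23 (SE 0.68) for CeD against Control and 0.08 (SE 0.68) for CeD+GR against Control. Neutrophils are among the cells known to make Mmp9, and 7 neutrophil markers summed to 1.88, 1.78 and 1.86 FPKM in CeD+GR, 2.43, 0.683 and 0.319 FPKM in CeD and 0.656, 0.550 and 0.384 FPKM in Control. The sum in all 3 CeD+GR libraries and in CeD 1 was above that in the other 5. This order rests on few reads: Retnlg, the highest marker of the list, had 1, 13 and 6 reads in CeD+GR 1 to 3 and 18 in CeD 1. Of these markers the granule enzyme gene Mpo was listed at 0 in 9 of 9 libraries, while the receptor gene Csf3r had 19 to 35 reads in each. Csf3r did not follow the order of the sum, with means of 0.413 FPKM in CeD+GR, 0.412 FPKM in CeD and 0.438 FPKM in Control. The 7 macrophage markers summed to 130.8 FPKM in CeD+GR 1, 85.2 FPKM in CeD 1 and 114.3 FPKM in Control 1, against 32.6 to 62.7 FPKM in the other 6 libraries. The part of neutrophil and macrophage content in the Mmp9 values was not tested. Among all genes tested, 9.06% had the 3 libraries numbered 1 above the other 6, and 7.25% had them below.

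**Figure D4:**
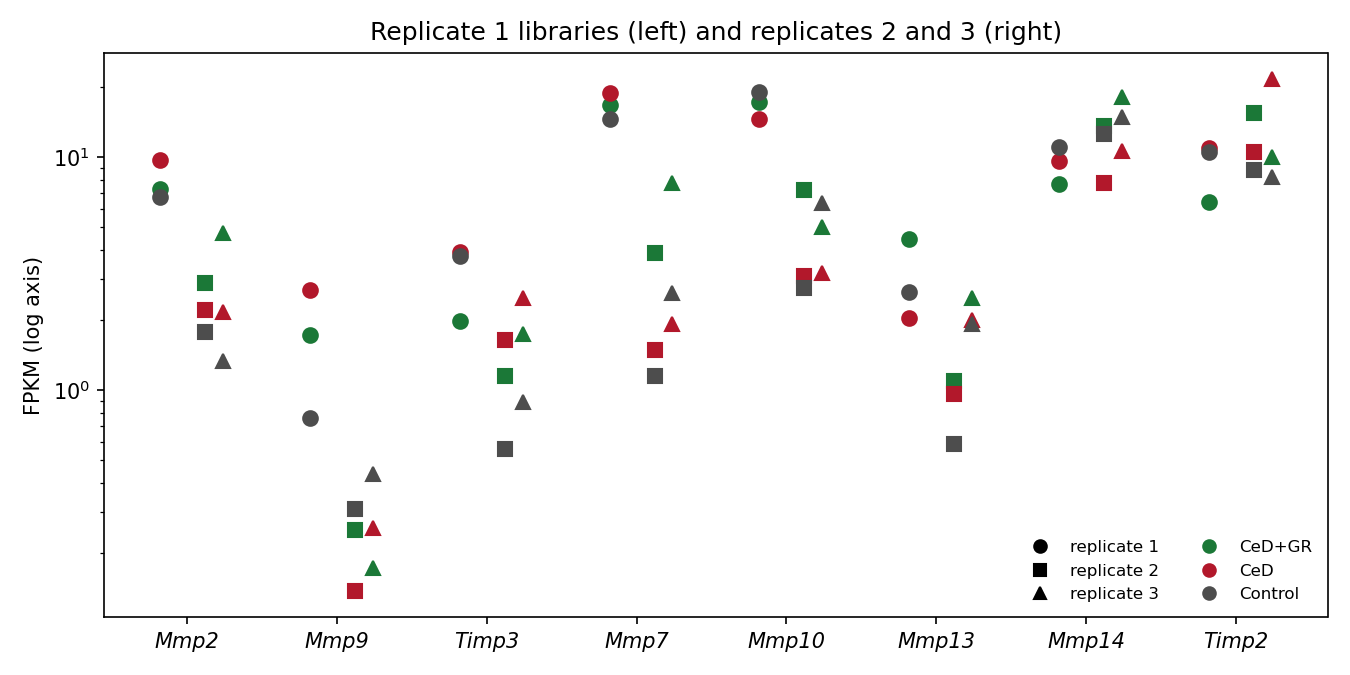
FPKM of 8 metalloproteinase and inhibitor genes on a log axis, with the libraries numbered 1 to the left and those numbered 2 and 3 to the right of each gene; colours give the groups. For Mmp2, Mmp9, Mmp7 and Mmp10 the libraries numbered 1 lie above the other 6, and for Mmp14 and Timp2 the 2 sets overlap, with CeD+GR 1 the lowest of all 9.

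Mmp19, an enzyme of basement membrane turnover, stayed under the filter of 0.5 FPKM and was not fitted (ENSMUSG00000025355, chromosome 10, 128790910 to 128800824, plus strand). It stood at 0.238, 0.611 and 0.364 FPKM in CeD+GR, 0.540, 0.275 and 0.292 FPKM in CeD and 0.684, 0.135 and 0.168 FPKM in Control, on 7 to 44 reads per library. The groups overlapped throughout. Its 3′ end overlaps Tmem198b on the opposite strand, at a mean of 0.739 FPKM, and the sources used here do not say whether counting used the strand.

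Timp2, the inhibitor that also serves in Mmp2 activation, made up most of the TIMP signal (ENSMUSG00000017466, chromosome 11, 118301069 to 118355740, minus strand). It stood at 6.40, 15.4 and 10 FPKM in CeD+GR 1 to 3, 10.9, 10.5 and 21.7 FPKM in CeD and 10.5, 8.85 and 8.26 FPKM in Control. CeD 3 was the highest library and CeD+GR 1 the lowest, and the groups overlapped. The means were 10.6 ± 4.54 FPKM in CeD+GR, 14.4 ± 6.35 FPKM in CeD and 9.22 ± 1.19 FPKM in Control (SD, n = 3 each). The log2 difference was -0.43 (SE 0.37) for CeD+GR against CeD, 0.54 (SE 0.37) for CeD against Control and 0.12 (SE 0.37) for CeD+GR against Control. Without CeD 3 the first 2 were -0.10 and 0.22. CeD 3 also held the highest summed level of 7 smooth muscle markers, 991.7 FPKM. The same sum was 125.3 to 507.3 FPKM in CeD+GR, 258.5 and 510.9 FPKM in the other CeD libraries and 317.5 to 470.1 FPKM in Control. The part of muscle content in the Timp2 values was not tested. The most similar profiles were those of Mcam, a vascular adhesion molecule (r = 0.978), Ltbp3, a TGF-beta binding protein of the matrix (r = 0.970), and Msrb3, a methionine sulfoxide reductase (r = 0.964).

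Timp3, which binds to the matrix and also blocks ADAM proteases, was lower (ENSMUSG00000020044, chromosome 10, 86300372 to 86349506, plus strand). It stood at 1.97, 1.15 and 1.75 FPKM in CeD+GR 1 to 3, 3.90, 1.64 and 2.49 FPKM in CeD and 3.76, 0.562 and 0.888 FPKM in Control. CeD 1 and Control 1 were the highest, and CeD+GR 1 lay within the range of the other libraries. The log2 difference was -0.54 (SE 0.51) for CeD+GR against CeD, 0.72 (SE 0.51) for CeD against Control and 0.18 (SE 0.51) for CeD+GR against Control. Within the libraries numbered 2 and 3, CeD lay above Control in both, at 1.64 and 2.49 FPKM against 0.562 and 0.888 FPKM. The share of all genes with this order was not counted. Timp3 lies within Syn3 on the opposite strand, which had a mean of 0.0512 FPKM.

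Timp1, an inducible inhibitor of wounded and inflamed tissue, was near the limit of detection outside 1 library (ENSMUSG00000001131, chromosome X, 20870166 to 20874735, plus strand). It stood at 0.291, 0 and 3.17 FPKM in CeD+GR 1 to 3, 0.568, 0.0781 and 0.410 FPKM in CeD and 0.495, 0.461 and 0.0668 FPKM in Control. CeD+GR 3 held 46 of its 81 reads, and CeD+GR 2 held 0, which allows up to 0.214 FPKM in that library (3 reads; counting error only). The log2 difference of 0.46 (SE 0.69) for CeD+GR against CeD turned to -0.39 without CeD+GR 3. That of 0.47 (SE 0.69) for CeD+GR against Control turned to -0.37, and for CeD against Control the difference was 0.02 (SE 0.69). Timp1 lies within Syn1 on the opposite strand, which stood at 0.111 to 1.91 FPKM.

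**Figure D5:**
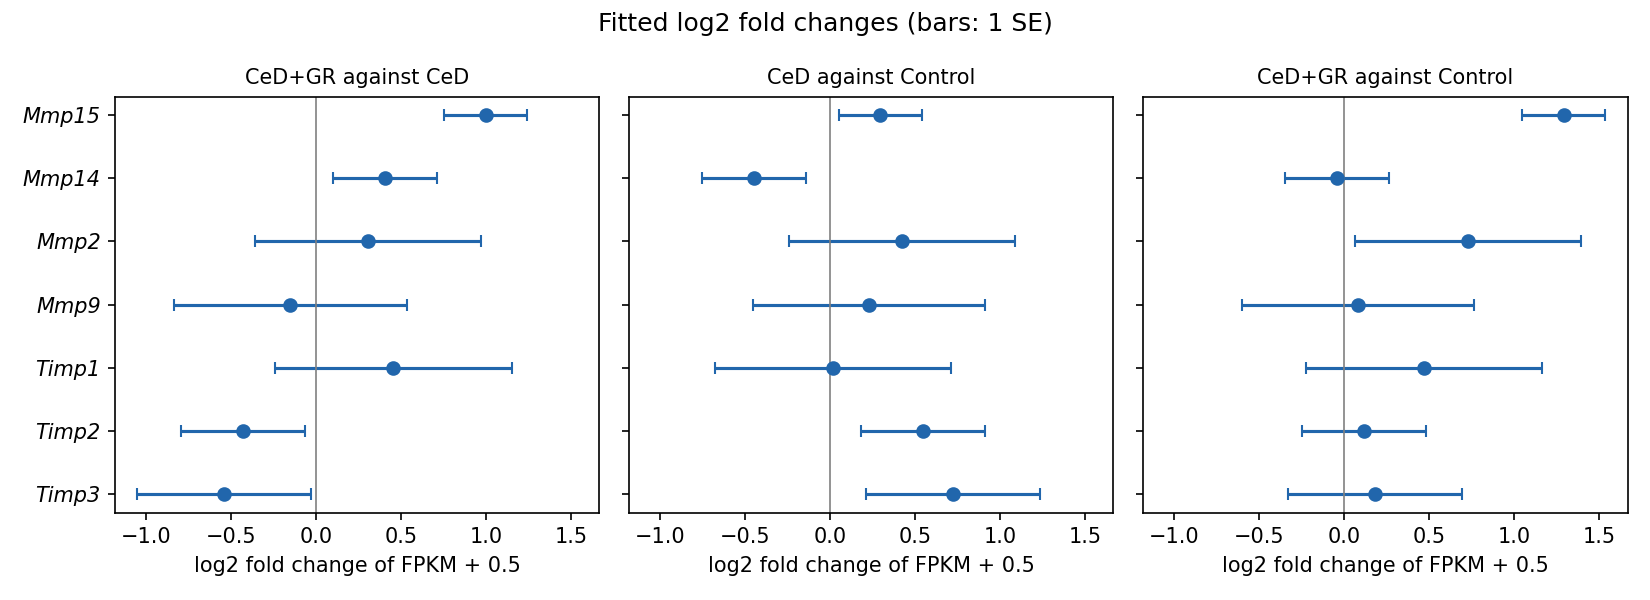
Log2 differences of FPKM + 0.5 for the 7 members that passed the filter, in the 3 comparisons; bars are 1 SE from 1 fit of all 9 libraries. Mmp15 lies at 0.999 for CeD+GR against CeD and 1.29 for CeD+GR against Control, and the bars of Mmp2, Mmp9 and Timp1 cross 0 in at least 2 of the 3 comparisons.

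In order of mean level over the 9 libraries, per length, Mmp14 (11.8 FPKM) and Timp2 (11.4 FPKM) came first, then Mmp15 (6.60 FPKM), Mmp2 (4.32 FPKM), Timp3 (2.01 FPKM), Mmp9 (0.750 FPKM), Timp1 (0.615 FPKM) and Mmp19 (0.367 FPKM). Mmp14 and Timp2 are not separated by their spread, and neither are Mmp9, Timp1 and Mmp19. The 5 MMPs summed to 29.0, 25.1 and 35.7 FPKM in CeD+GR, 27.1, 16.8 and 17.5 FPKM in CeD and 23.5, 19.0 and 20.5 FPKM in Control. CeD+GR lay above Control without overlap, and overlapped with CeD through CeD 1. The sum contains Mmp15, which itself did not overlap, and the list was drawn up with these values known. Nothing is therefore read from the order of the sums. Mmp15 alone made up 31.0% to 41.4% of this sum in CeD+GR and 17.5% to 22.0% in Control. Taken singly, Mmp14, Mmp2, Mmp9 and Mmp19 each overlapped between CeD+GR and Control. The 3 TIMPs summed to 8.66, 16.6 and 14.9 FPKM in CeD+GR, 15.4, 12.3 and 24.6 FPKM in CeD and 14.8, 9.88 and 9.22 FPKM in Control. The ratio of MMP to TIMP sums was 3.35, 1.52 and 2.39 in CeD+GR, 1.76, 1.37 and 0.710 in CeD and 1.59, 1.92 and 2.22 in Control, with overlap between all groups.

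Of the 8 genes, 7 passed the filter, Timp1 through CeD+GR 3 and Mmp9 through the libraries numbered 1. Groups without overlap were seen for 1 of the 7 in CeD+GR against CeD (Mmp15, higher), where 3.01% of all tested genes were higher and 3.04% lower without overlap. In CeD against Control there was 1 (Mmp14, lower), against backgrounds of 2.2% higher and 2.49% lower. In CeD+GR against Control there was 1 (Mmp15, higher), against 2.54% higher and 3.04% lower. Nothing is read from these counts, because the list was chosen on the same values. The median log2 difference over the 7 was 0.30, 0.29 and 0.18 in the 3 comparisons, beside 0.01, 0.00 and 0.00 over all 14683 genes. Nothing is read from these medians either, for the same reason. They are the values of Mmp2, Mmp15 and Timp3 in turn, and that of Mmp2 for CeD+GR against CeD was -0.02 without CeD 3. At an adjusted p of 0.05 in limma, 0% of genes were called higher and 0% lower in each comparison. At an unadjusted p under 0.05 there were 425, 103 and 400 genes (2.89%, 0.701% and 2.72%), and limma-voom on reads recovered from the FPKM called 0, with 382, 64 and 335 at an unadjusted p under 0.05.

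Of the 18 other MMPs looked at, 8 passed the filter, and 0 passed the test in any comparison, over all genes, with 0 also at an unadjusted p under 0.05. Mmp7, matrilysin, which in mice matures the alpha-defensins of Paneth cells, stood at 16.7, 3.86 and 7.73 FPKM in CeD+GR 1 to 3, 18.8, 1.49 and 1.93 FPKM in CeD and 14.6, 1.15 and 2.61 FPKM in Control. The libraries numbered 1, which were high in Paneth cell markers, were the highest in each group. Mmp10, a stromelysin, was likewise at 17.2, 7.23 and 5.01 FPKM in CeD+GR, 14.7, 3.10 and 3.17 FPKM in CeD and 19.0, 2.74 and 6.37 FPKM in Control. Mmp13, a collagenase, stood at 4.44, 1.09 and 2.49 FPKM in CeD+GR, 2.04, 0.961 and 1.998 FPKM in CeD and 2.65, 0.588 and 1.93 FPKM in Control. Mmp3, a stromelysin of stromal cells, reached 3.70 FPKM in CeD+GR 3, with 0.671 FPKM as its highest level elsewhere. Mmp11, Mmp17, Mmp23 and Mmp28 stayed between 0.273 and 3.25 FPKM in every library.

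Of 5 other inhibitors, Reck and Tfpi2 passed the filter, and 0 passed the test over all genes. Reck, a membrane-anchored MMP inhibitor, stood at 0.797, 1.82 and 0.973 FPKM in CeD+GR, 1.74, 1.41 and 3.54 FPKM in CeD and 1.33, 1.76 and 1.58 FPKM in Control. Its log2 difference was -0.65 for CeD+GR against CeD and 0.34 for CeD against Control.

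Enzymes that activate MMP precursors include furin and the plasminogen system. Of 11 genes of this list, 10 were tested and 0 passed over all genes. Plaur, the urokinase receptor, stood at 2.44, 3.23 and 12.8 FPKM in CeD+GR, 1.35, 0.742 and 0.626 FPKM in CeD and 1.45, 0.626 and 1.45 FPKM in Control. Every CeD+GR library lay above the other 6, with a log2 difference from CeD of 1.94 (unadjusted p = 0.00635, adjusted p = 1 in limma), which was 1.27 without CeD+GR 3. Plau, its ligand urokinase, stood at 6.79, 6.01 and 6.64 FPKM in CeD+GR, 4.74, 3.11 and 4.74 FPKM in CeD and 8.59, 2.97 and 3.81 FPKM in Control. Its CeD+GR libraries lay above the CeD libraries, and Control 1 was the highest of all. Plaur and Plau were picked from the list for a small unadjusted p. Of all tested genes, 3.01% were higher without overlap in CeD+GR than in CeD, and 2.54% higher than in Control.

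Related proteases were compared in the same way. Of 8 ADAM genes tested, 0 passed over all genes. Adam15 stood at 2.84, 4.95 and 5.01 FPKM in CeD+GR, 2.80, 2.48 and 3.45 FPKM in CeD and 2.91, 3.27 and 2.66 FPKM in Control, with overlap. Of 4 ADAMTS genes tested, 0 passed over all genes. Adamts8 stood at 0.252, 0.784 and 0.212 FPKM in CeD+GR, 0.486, 1.50 and 2.17 FPKM in CeD and 0.476, 0.918 and 0.784 FPKM in Control (log2 difference -0.98 for CeD+GR against CeD, unadjusted p = 0.0486, adjusted p = 1 in limma).

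Among matrix substrates, 13 interstitial genes were tested and 0 passed over all genes in any comparison. The log2 difference was positive for 13 of 13 in CeD against Control (median 0.41), for 4 of 13 in CeD+GR against CeD (median -0.15) and for 10 of 13 in CeD+GR against Control (median 0.30). Over all tested genes the share positive was 50.5%, 51.1% and 49.7% in these comparisons. The fibroblast markers, 4 of which are also on this list, summed to 35.9 to 95.2 FPKM in CeD and 26.7 to 66.1 FPKM in Control, with their highest level in CeD 1, and their part in these counts was not tested. The CeD against Control count was 7 of 13 without CeD 1, with a median of 0.09, and the median was 0.17 without Control 2, 0.25 without Control 3, 0.83 without Control 1 and 0.71 without CeD 2. Fn1, fibronectin, stood at 4.46, 3.41 and 3.77 FPKM in CeD+GR, 10.02, 5.88 and 10.97 FPKM in CeD and 11.3, 3.99 and 5.42 FPKM in Control. Its CeD+GR libraries lay below the CeD libraries without overlap (log2 difference -1.07, unadjusted p = 0.0188, adjusted p = 1 in limma). Fn1 was picked for the smallest unadjusted p of its list. Of all tested genes, 3.04% were lower without overlap in CeD+GR than in CeD. Dcn, the small proteoglycan decorin, had a log2 difference of 1.12 for CeD+GR against Control (unadjusted p = 0.0441, adjusted p = 1 in limma), with overlap between the groups. Of 15 basement membrane genes tested, 0 passed, with 8 positive in CeD+GR against CeD (median 0.00), 14 in CeD against Control (median 0.33) and 15 in CeD+GR against Control (median 0.23). The CeD against Control count was 7 of 15 without CeD 1, with a median of 0.00, and the median was 0.03 without Control 2, 0.58 without CeD 2 and 0.69 without Control 1. Basement membrane genes were positive for 8 of 15 in CeD+GR against Control without Control 2 (median 0.00). In CeD+GR against CeD, leaving out CeD 1 gave 12 of 15 basement membrane genes (median 0.26) and 10 of 13 interstitial genes (median 0.21), and leaving out CeD 2 gave 4 of 15 (median -0.20) and 1 of 13 (median -0.49). Of 9 surface partners and clearance receptors tested, 0 passed over all genes. Thbs2, a matrix protein that clears Mmp2 together with the receptor Lrp1, stood at 0.415, 2.02 and 0.262 FPKM in CeD+GR, 1.32, 2.62 and 4.38 FPKM in CeD and 1.99, 2.39 and 2.93 FPKM in Control. Its log2 difference was -1.33 for CeD+GR against CeD (unadjusted p = 0.0272, adjusted p = 1 in limma), with overlap between the groups.

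Transcription factors of the AP-1 and ETS families, which are known to drive several MMP genes, were tested for 11 genes, and 0 passed over all genes, with 0 at an unadjusted p under 0.05. Their median log2 difference was 0.09 for CeD+GR against CeD, -0.06 for CeD against Control and 0.07 for CeD+GR against Control. Junb stood at 73.2, 134.0 and 48.3 FPKM in CeD+GR, 70.4, 78.7 and 181.7 FPKM in CeD and 87.6, 101.1 and 160.8 FPKM in Control, with overlap between all groups.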

How the data were processed

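RNA was measured in 9 mouse duodenum libraries, 3 per group, grouped by sample title. The libraries were directional and depleted of ribosomal RNA, per the labels' protocols. The authors deposited FPKM per gene with gene lengths and mm10 coordinates, where the start and end of the 8 genes are the same as in GENCODE M21. Named without role or order, per the submitters' processing notes, are the mm10 build, DESeq2 1.20.0, featureCounts 1.5.0-p3, HISAT2 2.0.5 and fastp. Reads per gene were recovered from FPKM and length, and 100% of values above 0 came out whole (tolerance 0.1 reads). Values were tested as log2(FPKM + 0.5) for the 14683 genes whose mean reached 0.5 FPKM, with limma 3.58.1 (R 4.3.3) in 1 group-means model over 9 libraries, two-sided, with Benjamini-Hochberg adjustment. Such fold changes understate the change of low genes. The steps were tested on simulated data. Of the other genes, all MMPs and inhibitors could be named, and the 3 of each other list with the smallest unadjusted p, with the most similar profiles by Pearson's r. Vil1, Epcam, Pdgfra, Mpo and Csf3r were named outside this rule, after their values were seen. Genes and lists were chosen with earlier results of these data known. Alternatives were other pseudocounts, filters, scalings, fits and left-out libraries.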

Additional observations from a re-analysis of the deposited data

How the results depend on the processing

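The count of genes called at an adjusted p of 0.05 in limma was 0 in all 3 comparisons under every alternative run, other than a count of 1 (Gm22615) for CeD+GR against Control without Control 1, so the range over left-out libraries was 0 to 1 there and 0 in the other 2 comparisons. Of 477 values of members under alternatives, 475 moved by less than the SD within groups and 38 had the other sign. Several alternatives, such as other filters, the replicate block and a left-out library of the third group, leave a difference unchanged by design. The SD (log2) was 0.28 for Mmp15 and 0.94 to 0.95 for Mmp2, Mmp9 and Timp1, so for the latter a change of sign could stay under it. The count of 475 is therefore no measure of stability. Mmp15 kept its sign in all alternatives, at 0.84 to 1.203 for CeD+GR against CeD, 0.12 to 0.46 for CeD against Control and 1.18 to 1.50 for CeD+GR against Control. Mmp9 turned to 0.90 for CeD+GR against CeD without CeD 1 and CeD+GR 3, and Mmp14 turned to 0.29 for CeD+GR against Control without CeD+GR 1; the cause was not tested. No scaling moved the median of all genes by over 0.1. As scalings bring libraries to a like level by design, this is no measure of how stable the members are. With the replicate number as a block 0 genes were called, with 805, 193 and 643 at an unadjusted p under 0.05, against 425, 103 and 400 without it. Deviations of same-numbered libraries correlated at 0.25 to 0.71 in 7 of 9 pairs, among them all 3 of CeD with Control (0.71, 0.37 and 0.41). The other 2 were CeD+GR 3, the library with gastric transcripts, with CeD 3 (-0.12) and with Control 3 (-0.11). As not every pair was above 0.1, the numbers were not taken as pairs. At equal numbers CeD lay above Control in 3 of 3 for Mmp15, Mmp2, Timp2 and Timp3. At number 1 the margin was narrow for Timp2 (10.9 against 10.5 FPKM) and Timp3 (3.90 against 3.76 FPKM). The share of all genes with this order was not counted, so nothing is read from it. Depth limits Timp1, Mmp19 and Mmp9, with 81, 194 and 402 reads in all.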

Other observations

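CeD+GR 3, the library with gastric gland transcripts, also held the highest levels of several surface and matrix genes. Cd44, a receptor of hyaluronan that binds MMPs at the cell surface, stood at 93.6 FPKM there and at 1.90 to 5.99 FPKM in the other 8 libraries. Col18a1, a basement membrane collagen, stood at 46.8 FPKM there and at 1.93 to 6.92 FPKM elsewhere. Adamts15, a proteoglycan-cutting protease, stood at 5.77 FPKM there and at 0.415 to 1.61 FPKM elsewhere. In CeD+GR 1 and CeD+GR 2 these 3 genes lay within the range of the CeD and Control libraries.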
